A study of Mus musculus with 8 samples.

Results

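The genes of the cell cycle and of DNA replication described here are 40 genes, 26 that act from G1 into S phase and 14 that act from G2 into mitosis. They were taken by symbol from the 16640 rows of the authors' deposited table, in which all 40 were found, and no filter on low values was applied to them. The table compares whole livers of 4 Huwe1_LKO mice, in which the ubiquitin ligase gene Huwe1 was knocked out in the liver, with whole livers of 4 WT mice. All 8 mice were 1 year old and had been kept on chow (5P00 ProLab, eaten at will), and neither the labels nor the file headers state the Cre driver, the deleted exons, the sex or the strain. For each gene the table holds 1 depth-normalized expression value per group, the log2 of their ratio (Huwe1_LKO over WT) and a DESeq2 p, also adjusted over all rows by the Benjamini-Hochberg method. In genes with few reads the group values, like their ratio, are drawn toward equality, as described under the processing of the data. How far this reaches the members was not tested. The single livers were not analysed here, and so the levels carry no standard deviation. The error of a fold change is the standard error implied by the deposited p, and its 95% interval follows from that error.

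In G1, cyclins of the D type bind CDK4 or CDK6 and start to inactivate RB, which frees E2F transcription factors to switch on cyclin E and the genes of DNA replication. Origins of replication are licensed when CDC6 and CDT1 load the MCM helicase, and later in the cycle cyclin A, cyclin B and CDK1, under FOXM1 and the MuvB complex, drive mitosis. Hepatocytes of an adult liver are mostly at rest, enter the cycle after injury or loss of tissue, and often copy their genome without dividing, a process in which E2F7 and E2F8 take part.

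Huwe1 itself stood at 1784 in Huwe1_LKO livers and 2666 in WT livers in the authors' deposited table (adjusted p = 0.000425). The deposited values summed to 17533080 for Huwe1_LKO and 17347886 for WT. Hepatocyte markers were abundant in both groups, and 1 of 5 was called higher, where 4.41% of all genes were. This was Hnf4a, with 11654 in Huwe1_LKO and 8990.2 in WT in the deposited table (adjusted p = 0.0318). Of the 5 markers, 4 lay above 0, among them Alb (log2 fold change 0.45, adjusted p = 0.0631 by DESeq2), and Apob lay at -0.03. In whole tissue, fewer cells of a type and less RNA per cell cannot be told apart.

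Of the 40 genes, 4 rose in the Huwe1_LKO livers at an adjusted p under 0.05 and 0 fell. These were the cyclins Ccnd1 and Ccne1, the CDK inhibitor Cdkn2c and the transcription factor E2f7, all of them on the G1/S side. Among all genes of the deposited table, 9.97% were called, 4.41% as higher and 5.56% as lower, so 4 calls of 40 genes lie at the background for either direction and above that for higher calls. With the fold changes centred on the most abundant eighth of genes, the split of all calls went to 1168 higher and 625 lower, against 734 higher and 925 lower as deposited, and the same 4 members were called. Of the 14 G2/M genes none passed by DESeq2's deposited result, yet 13 of them had a log2 fold change above 0. At an unadjusted p under 0.05, 8 members were higher and 1 was lower, where all genes gave 9.65% and 10.8%.

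**Figure D1:**
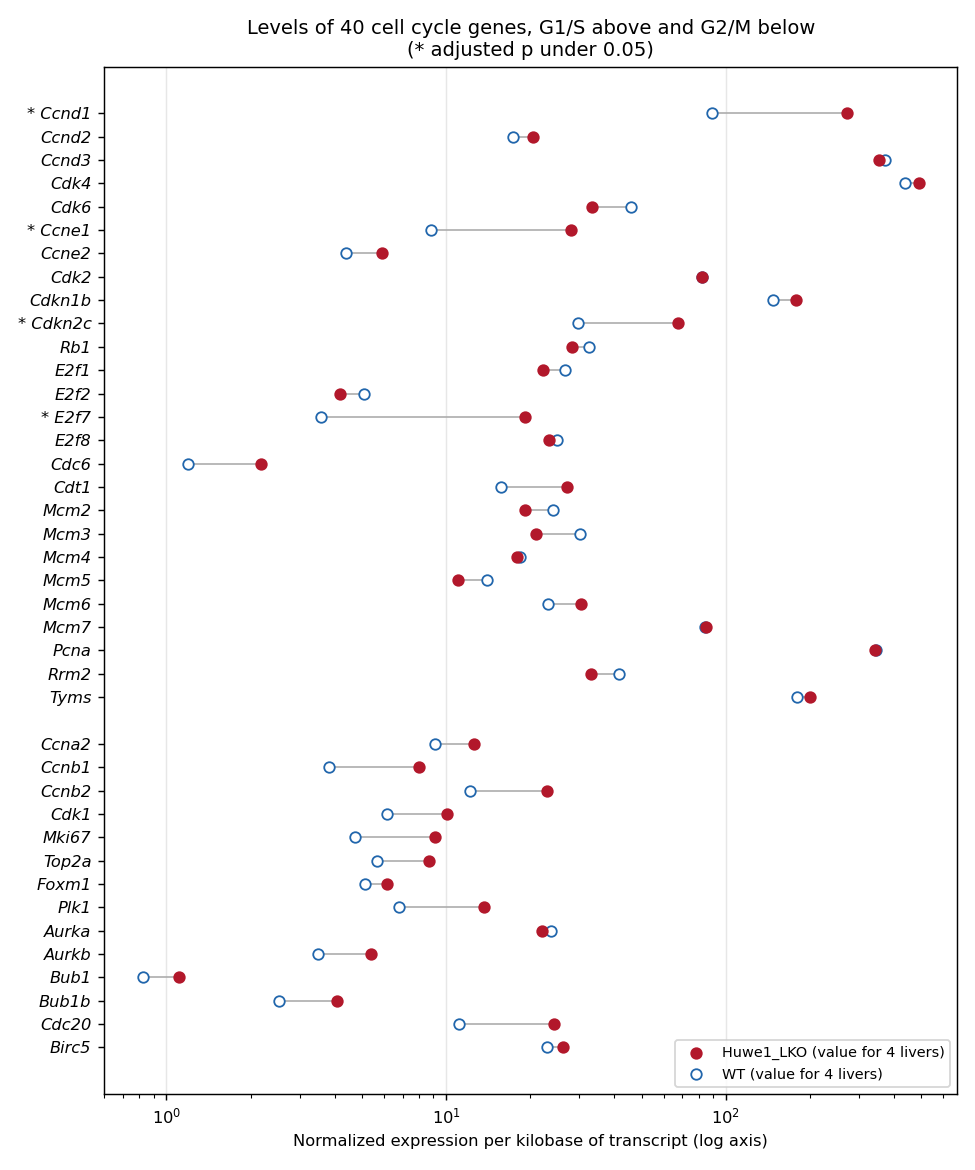
Level of each of the 40 genes in Huwe1_LKO (filled red) and WT (open blue) livers, as the authors' group value per kilobase of transcript on a log axis. The 4 starred genes are wide apart, E2f7 the widest. The points of the other G1/S genes lie closer together, with Huwe1_LKO on either side of WT. In 13 of 14 G2/M genes the Huwe1_LKO point lies to the right.

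Cyclin D1 (Ccnd1, Entrez ID 12443; chromosome 7, 144929931 to 144939831 in GRCm38), the cyclin that growth signals raise to start the cycle, stood at 1032 in Huwe1_LKO and 339 in WT in the authors' deposited table. This is 3.04-fold higher, a log2 fold change of 1.61 with an implied standard error of 0.31, an interval of 1.00 to 2.21 and an adjusted p of 1.07e-05. Its rank among all 16640 fold changes was 115 from the top. Its relatives gave no call. Cyclin D2 (Ccnd2) had 118 in Huwe1_LKO and 99.8 in WT, and cyclin D3 (Ccnd3) 703 in Huwe1_LKO and 740.2 in WT, in the deposited table, with log2 fold changes of 0.24 and -0.08 (adjusted p = 0.61 and 0.818 by DESeq2). The interval of Ccnd3, -0.28 to 0.13, leaves room for only a small change, and that of Ccnd2, -0.16 to 0.63, for a larger one.

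Per kilobase of transcript, Ccnd1 made up 42.2% of the summed D-type cyclin RNA in Huwe1_LKO livers and 18.7% in WT livers, computed from the deposited values. Ccnd3 supplied 54.7% in Huwe1_LKO and 77.7% in WT, and Ccnd2 3.16% in Huwe1_LKO and 3.62% in WT. The D-type total was 645 per kilobase in Huwe1_LKO and 478 in WT, a ratio of 1.35, which carries no error of its own. By these values per kilobase, Ccnd3 was the largest D-type part in both groups, an order that also carries no error. Before division by length, Ccnd1 stood above Ccnd3 in Huwe1_LKO livers, at 1032 and 703.

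The kinases that D-type cyclins activate did not pass the test. Cdk4 stood at 684 in Huwe1_LKO and 609.9 in WT in the deposited table, the log2 fold change being 0.17 (interval -0.04 to 0.37, adjusted p = 0.411). Cdk6 was the 1 member below 0 at an unadjusted p under 0.05, with 383 in Huwe1_LKO, 529 in WT and a log2 fold change of -0.47 (interval -0.87 to -0.06, adjusted p = 0.148 by DESeq2). Cdk4 held 93.7% of the pair's RNA per kilobase in Huwe1_LKO and 90.5% in WT.

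Cyclin E1 (Ccne1, Entrez ID 12447; chromosome 7, 38097984 to 38107490 in GRCm38), which activates CDK2 at the entry into S phase, stood at 56.4 in Huwe1_LKO and 17.8 in WT in the authors' deposited table. It was 3.17-fold higher, with a log2 fold change of 1.66, an implied standard error of 0.32, an interval of 1.04 to 2.28 and an adjusted p of 9.81e-06. About 297 normalized reads over the 8 livers stand behind it, counted as 8 times the mean of both group values. Cyclin E2 (Ccne2), at 17.8 in Huwe1_LKO and 13.3 in WT in the deposited table, did not pass (log2 fold change 0.42, interval -0.35 to 1.19, adjusted p = 0.659). Ccne1 was the larger part of the pair per kilobase in both groups, 82.6% in Huwe1_LKO and 66.7% in WT. Their kinase Cdk2 showed nearly equal values, 190.7 in Huwe1_LKO and 191 in WT in the deposited table, and its interval, -0.31 to 0.31, excludes a change of 2-fold in either direction.

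**Figure D2:**
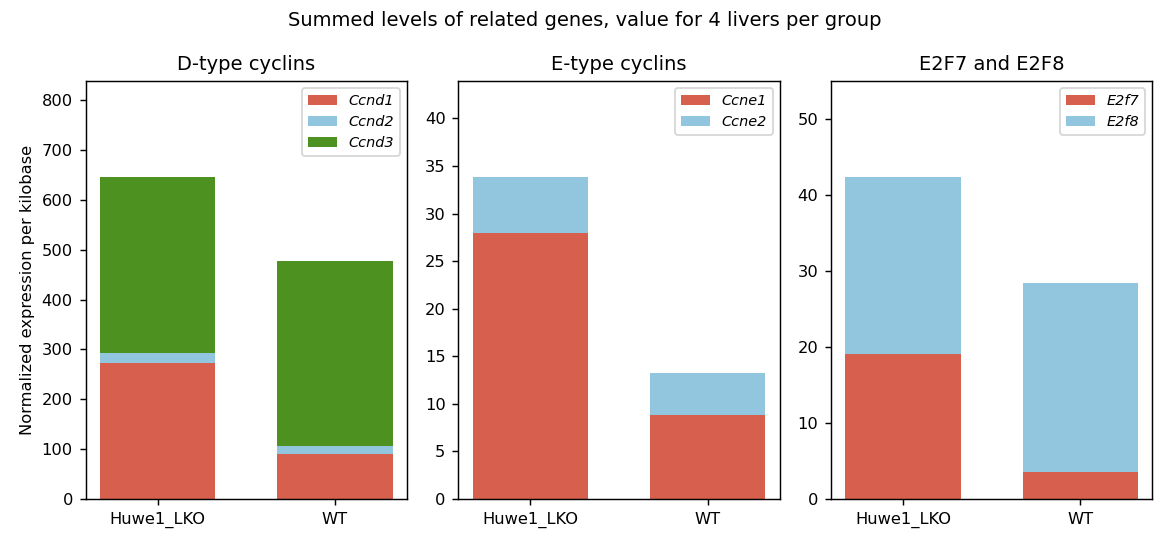
Stacked levels per kilobase of the D-type cyclins, the E-type cyclins and the E2f7 and E2f8 pair, Huwe1_LKO left of WT, each bar the authors' value for 4 livers with no error. Ccnd1, Ccne1 and E2f7 take larger shares in Huwe1_LKO, while Ccnd3 and E2f8 keep similar heights in both groups.

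Among the brakes of G1, the CDK4 and CDK6 inhibitor p18INK4c (Cdkn2c, Entrez ID 12580; chromosome 4, 109660876 to 109666756) rose together with the cyclins. It stood at 106 in Huwe1_LKO and 46.5 in WT in the authors' deposited table, 2.28-fold higher, with a log2 fold change of 1.19, an implied standard error of 0.35, an interval of 0.49 to 1.88 and an adjusted p of 0.0125. This is the only one of the 4 calls that was lost at an adjusted p under 0.01. Cdkn1b, the gene of the inhibitor p27, had 428 in Huwe1_LKO and 354 in WT in the deposited table (log2 fold change 0.27, interval -0.03 to 0.57, adjusted p = 0.311). The retinoblastoma gene Rb1 had 131 in Huwe1_LKO and 150.2 in WT (log2 fold change -0.20, interval -0.53 to 0.14, adjusted p = 0.626 by DESeq2). So an activating cyclin and an inhibitor of the same kinases were both higher, while p27 and RB showed no call.

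Of the 4 E2F factors among the members, 1 was called. E2f7 (Entrez ID 52679; chromosome 10, 110745439 to 110787384), an atypical E2F that represses E2F targets, stood at 106 in Huwe1_LKO and 19.8 in WT in the authors' deposited table. This was the largest fold of the 40 genes, 5.36-fold higher, with a log2 fold change of 2.42, an implied standard error of 0.45, an interval of 1.54 to 3.30 and an adjusted p of 5.52e-06, and it ranked 27 from the top of all genes. E2f8, its partner in the same repressive role, stood at 86.2 in Huwe1_LKO and 92.3 in WT in the deposited table (log2 fold change -0.10, interval -0.87 to 0.67, adjusted p = 0.934). E2f7 supplied 45.1% of the pair's RNA per kilobase in Huwe1_LKO and 12.5% in WT. The activators E2f1 and E2f2 had log2 fold changes of -0.26 and -0.28 in the deposited table, with 60.9 and 19.6 in Huwe1_LKO against 72.7 and 23.8 in WT, and neither passed (adjusted p = 0.648 and 0.819 by DESeq2).

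**Figure D3:**
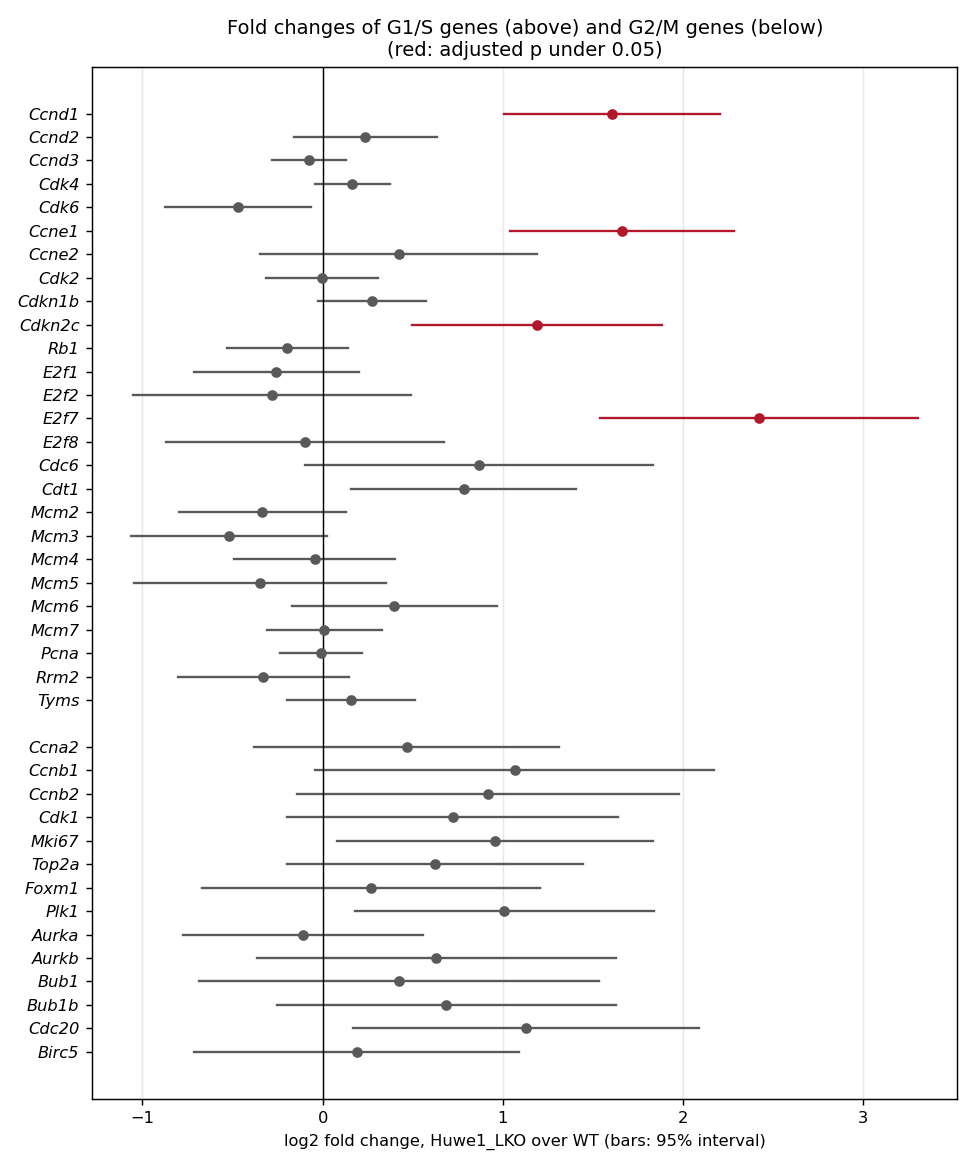
Log2 fold change of Huwe1_LKO over WT for each gene with its 95% interval, G1/S genes above and G2/M genes below, red where the adjusted p is under 0.05. The 4 red intervals lie wholly above 0, the Mcm genes, Pcna and Tyms straddle 0, and the G2/M genes lie mostly right of 0 with wide intervals.

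The members that license origins, unwind DNA, clamp the polymerases or supply nucleotides, many of them textbook targets of the activating E2Fs, gave no call. Of the 8 licensing and helicase genes 0 passed by DESeq2 as deposited and 1 had an unadjusted p under 0.05, and their median log2 fold change was -0.02. The loading factors Cdt1, with 61.0 in Huwe1_LKO and 35.4 in WT, and Cdc6, with 9.86 in Huwe1_LKO and 5.40 in WT in the deposited table, had log2 fold changes of 0.78 and 0.87. Neither passed (adjusted p = 0.102 and 0.321 by DESeq2), and Cdc6 rests on about 61.0 normalized reads in all 8 livers.

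The 6 subunits of the MCM helicase, which act as 1 ring, ranged from -0.52 for Mcm3 to 0.40 for Mcm6 in deposited log2 fold change, with 2 of 6 above 0. Mcm3 had 60.7 in Huwe1_LKO and 87.0 in WT (interval -1.06 to 0.02), Mcm6 95.5 in Huwe1_LKO and 72.5 in WT (interval -0.17 to 0.97). Mcm7, the most abundant subunit per kilobase, had 204.8 in Huwe1_LKO and 203 in WT in the deposited table (interval -0.31 to 0.33). Mcm2, Mcm4 and Mcm5 had log2 fold changes of -0.33, -0.04 and -0.35, and the lowest adjusted p of the 6 subunits was 0.274 by DESeq2. Summed per kilobase, the 6 subunits came to 184 in Huwe1_LKO and 194 in WT.

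Pcna, the sliding clamp of the DNA polymerases, had one of the narrowest intervals, with 432 in Huwe1_LKO, 434 in WT and an interval of -0.23 to 0.22 in log2 fold change from the deposited table. Thymidylate synthase (Tyms) stood at 759.5 in Huwe1_LKO and 681 in WT (interval -0.20 to 0.51, adjusted p = 0.748). The ribonucleotide reductase subunit Rrm2, which supplies deoxynucleotides in S phase, stood at 72.5 in Huwe1_LKO and 91.1 in WT in the deposited table (log2 fold change -0.33, interval -0.80 to 0.14, adjusted p = 0.514 by DESeq2). Without the 4 called genes, the other 22 G1/S genes had a median log2 fold change of -0.03, and 9 of them lay above 0. The 4 calls lay among cyclins, a CDK inhibitor and an E2F factor. The 8 licensing and helicase members and the 3 of clamp and nucleotide supply gave 0 calls, which is close to the background of 9.97% for so few genes, and the difference was not tested.

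The mitotic genes showed another picture, of low levels and shared direction without calls. The 14 G2/M genes had a median log2 fold change of 0.66 in the deposited table, against 0.00 for the 26 G1/S genes and 0.02 for all genes. Of the 14, 13 lay above 0 (92.9%), against 13 of the 26 G1/S genes and 53.1% of all genes. Low genes as a class also leaned upward, since among the 3696 genes within the range of mean values of the G2/M genes the median was 0.14 and 63.9% lay above 0. The difference between G1/S and G2/M genes was not tested, as the genes are not replicates of a condition.

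All 4 genes of the mitotic cyclins and their kinase lay above 0. Cyclin B1 (Ccnb1) had 18.5 in Huwe1_LKO and 8.86 in WT, cyclin B2 (Ccnb2) 35.4 in Huwe1_LKO and 18.7 in WT, in the authors' deposited table. Cdk1, the kinase that starts mitosis, had 28.9 in Huwe1_LKO and 17.5 in WT, and cyclin A2 (Ccna2), which acts from S phase to early mitosis, 42.5 in Huwe1_LKO and 30.7 in WT in the deposited table. Their log2 fold changes were 1.07, 0.92, 0.72 and 0.47, and the lowest adjusted p of the 4 was 0.27 by DESeq2. The interval of Ccnb1, -0.04 to 2.17, reaches from no change to more than a 4-fold rise.

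Mki67, the gene of the proliferation marker Ki-67, had 92.6 in Huwe1_LKO and 47.6 in WT in the deposited table, the log2 fold change being 0.96 and an interval of 0.08 to 1.84 (adjusted p = 0.183 by DESeq2). Top2a, which untangles replicated DNA, had 45.4 in Huwe1_LKO and 29.4 in WT (log2 fold change 0.62, interval -0.20 to 1.44). Foxm1, the transcription factor of the mitotic program, stood at 27.1 in Huwe1_LKO and 22.5 in WT in the deposited table (log2 fold change 0.27, interval -0.67 to 1.20). All 3 lay above 0 and none passed.

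Among mitotic kinases and checkpoint genes, 6 of 7 lay above 0. Polo-like kinase 1 (Plk1) had 30.3 in Huwe1_LKO and 15.0 in WT, a log2 fold change of 1.01 with an interval of 0.18 to 1.84, and an adjusted p of 0.119 by DESeq2. Cdc20, which activates the anaphase-promoting complex, had 43.6 in Huwe1_LKO and 19.9 in WT in the deposited table, a log2 fold change of 1.13 with an interval of 0.17 to 2.09 and an adjusted p of 0.138. With Mki67, these are the 3 G2/M genes with an unadjusted p under 0.05. The checkpoint kinase genes Bub1 and Bub1b and the Aurora kinase Aurkb had log2 fold changes of 0.43, 0.69 and 0.63 at deposited values between 4.80 and 14.9 in Huwe1_LKO and between 3.57 and 9.26 in WT. Survivin (Birc5), a partner of Aurora B, had 46.4 in Huwe1_LKO and 40.7 in WT (log2 fold change 0.19), and Aurora A (Aurka) was the 1 gene below 0, with 41.8 in Huwe1_LKO and 45.0 in WT in the deposited table (log2 fold change -0.11, interval -0.77 to 0.56).

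The G2/M genes were measured less precisely than the G1/S genes, which bears on the calls. The largest unadjusted p that was called was 0.00497, so a gene needed a fold change of at least 2.81 times its standard error. On the scale of the deposited fold changes, that is 2.51-fold for the median G2/M gene, with an implied standard error of 0.47. Of the 14, 13 needed more than 2-fold, the range being 1.94 to 3.01. For the median G1/S gene, with 0.24, it is 1.59-fold, and 5 of the 26 needed more than 2-fold. A 2-fold fall lay outside the interval of all 14 G2/M genes. However, no gene of the table had an implied standard error above 0.57, and Bub1 (0.57) and Ccnb1 (0.56) lay near that limit. With fold changes of low genes also understated, these intervals cannot exclude a 2-fold fall of low genes. A 2-fold rise lay inside the interval or below its upper end for 13 of the 14. A miss of the threshold therefore does not show that these genes were equal in both groups.

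The implied standard error was also large for genes of this level, in a comparison chosen after the data were seen. This error comes from the model and is not a measured spread between livers. All 14 G2/M genes had a standard error above the median of the 500 genes nearest to them in mean value, and 16 of the 26 G1/S genes did. Ccnb1 had an implied standard error of 0.56 against a neighbour median of 0.41, Mki67 0.45 against 0.24 and Birc5 0.46 against 0.29. Of the 4 called genes, 3 also had a large standard error for their level. Ccnd1 was at 0.31 against 0.13, E2f7 at 0.45 against 0.25 and Cdkn2c at 0.35 against 0.23, while Ccne1 was at 0.32 against 0.30. E2f8 also had a large standard error, at 0.39 against 0.22.

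**Figure D4:**
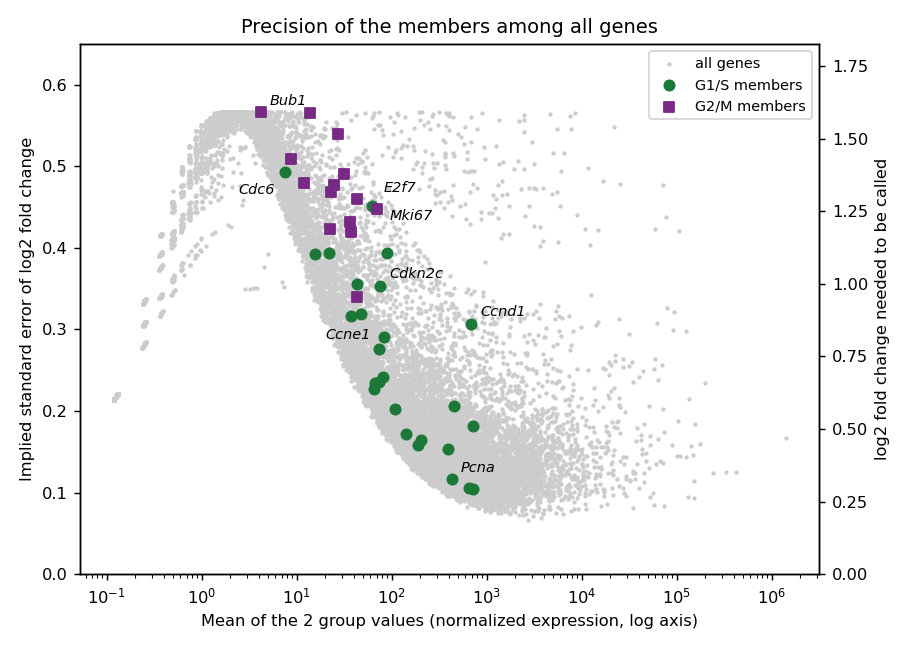
Implied standard error of each gene's log2 fold change against the mean of its group values (log axis), with all genes in grey, G1/S members as green circles and G2/M members as purple squares. The right axis gives the log2 fold change a gene needed to be called, and all 14 purple squares lie above the middle of the grey band at their level.

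Levels per kilobase put the members in an order that carries no error of its own. The highest in Huwe1_LKO livers were Cdk4 (489.8 per kilobase), Ccnd3 (353), Pcna (343) and Ccnd1 (272), all G1/S genes, computed from the deposited values. In WT livers Cdk4 (437), Ccnd3 (371) and Pcna (345) led in the same order, Tyms (179) and Cdkn1b (147) followed, and Ccnd1 (89.3) came after them. The lowest were Bub1 (1.11 in Huwe1_LKO, 0.824 in WT) and Cdc6 (2.18 in Huwe1_LKO, 1.19 in WT) per kilobase. The G2/M genes had a median mean value of 25.9 before division by length and the G1/S genes 82.9. By level, 3 of the 26 members with a mean value of 10 to 100 were called higher, where 5.03% of such genes were, 1 of the 11 at 100 to 1000, where 5.93% were, and 0 of the 3 under 10, where 0.785% were.

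Other genes of the same pathways, 140 in 8 lists, gave 0 higher and 5 lower at an adjusted p under 0.05 by DESeq2 as deposited. Without adjustment, 12 were higher and 13 lower at a p under 0.05. Among all genes 4.41% were higher and 5.56% lower with adjustment, and 9.65% higher and 10.8% lower without, so these counts do not exceed the background. Beyond the D, E, A and B cyclins, cyclin G2 (Ccng2), linked to cell cycle exit, fell to 83.7 in Huwe1_LKO, against 151.8 in WT in the authors' deposited table (adjusted p = 0.0235). The activating factor E2f3 fell to 78.1 in Huwe1_LKO, against 123 in WT (log2 fold change -0.65, adjusted p = 0.0333 by DESeq2). These lists had 1 call of 14 genes each.

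Among fork proteins, 1 of 23 was called, Pole4, a small subunit of DNA polymerase epsilon, with 184 in Huwe1_LKO and 244 in WT in the deposited table (log2 fold change -0.40, adjusted p = 0.0319). Their median log2 fold change was -0.12. Of 10 other genes of nucleotide supply, 2 of the pyrimidine route fell. The background for both lists is the 5.56% of all genes that were called lower. Without adjustment 3 of the 10 were higher and 2 lower at a p under 0.05, where all genes gave 9.65% and 10.8%. The median log2 fold change of the 10 was 0.06. CTP synthase (Ctps) had 37.3 in Huwe1_LKO and 88.0 in WT (log2 fold change -1.24, adjusted p = 2.47e-06 by DESeq2), and Umps, which makes UMP, had 399 in Huwe1_LKO and 558.7 in WT in the deposited table (adjusted p = 0.00128). Both serve RNA synthesis as well as DNA synthesis.

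None of 18 origin recognition and firing genes, 6 other CDK inhibitors, 16 ubiquitin ligase genes of the cycle or 39 other mitotic genes passed by DESeq2's deposited result, where 1, 2, 1 and 6 had an unadjusted p under 0.05. The 6 mitotic genes were 4 higher and 2 lower. Among all genes 9.97% were called with adjustment, and 9.65% were higher and 10.8% lower without it. The median log2 fold change of the 39 mitotic genes was 0.42 and 34 of them lay above 0. Of all genes in the range of mean values of the G2/M members, 63.9% lay above 0, with a median of 0.14. Deposited values of the 39 summed to 2434 in Huwe1_LKO and 2445 in WT. Their mean values had a median of 18.2 and a maximum of 553, so abundant genes weigh most in that sum. Examples are the spindle proteins Tpx2, with 26.9 in Huwe1_LKO and 14.0 in WT, and Hmmr, with 36.2 in Huwe1_LKO and 21.3 in WT, in the authors' deposited table (adjusted p = 0.218 and 0.344). Among the inhibitors, the p21 gene Cdkn1a had 118 in Huwe1_LKO and 80.0 in WT and the p57 gene Cdkn1c 46.8 in Huwe1_LKO and 27.4 in WT, and neither passed (adjusted p = 0.516 and 0.105 by DESeq2). Cdc45 (-0.55) and Orc5 (-0.36) of the origin list, Cks1b (-0.51) of the cyclin list, Lin9 (0.59) of the MuvB list, Prim1 (0.34) of the fork list and Fbxo5 (-0.32) and Anapc5 (-0.23) of the ligase list had the next largest deposited log2 fold changes, and none passed.

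**Figure D5:**
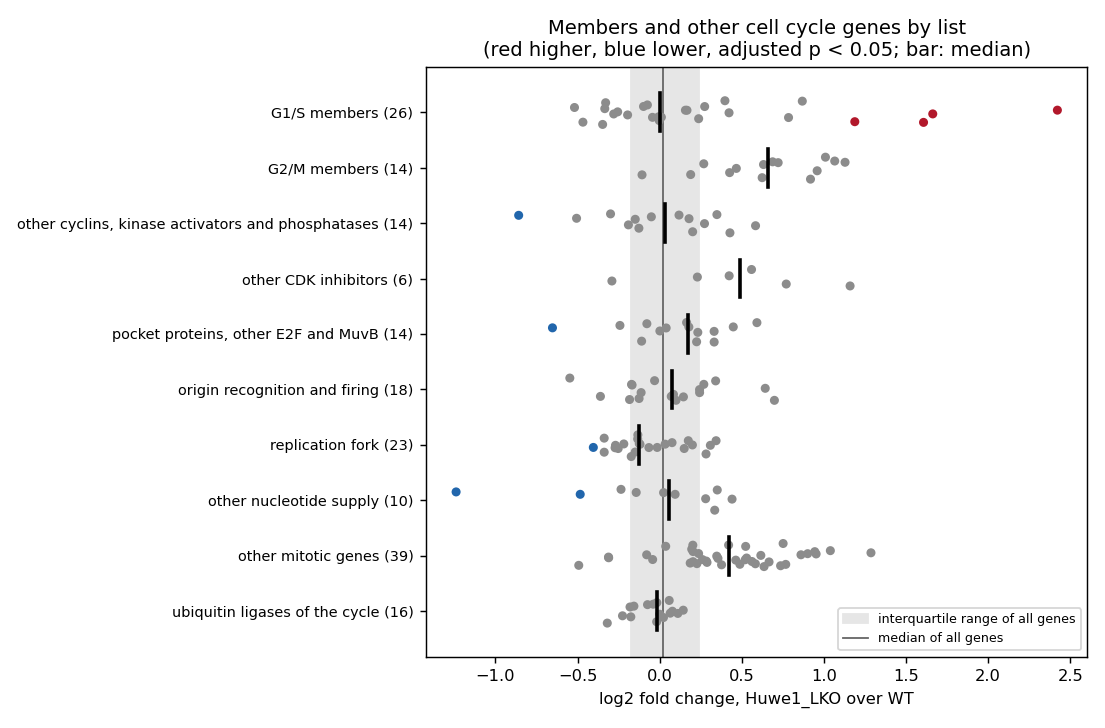
Log2 fold changes of the members and of 8 lists of other cell cycle genes, each point a gene, with the list median as a black bar and the interquartile range of all genes shaded. The medians of the G2/M members (0.66), of the 6 other CDK inhibitors (0.49) and of the other mitotic genes (0.42) lie right of the shaded band, those of the G1/S members and of the replication lists within it.

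Of the markers of other liver cells, 2 of the 5 of neutrophils and 1 of the 6 of B and plasma cells were called higher, where 4.41% of all genes were. The 5 neutrophil markers summed to 129 in Huwe1_LKO and 48.9 in WT in the authors' deposited table. Most of that sum was S100a9, which was called, with 79.1 in Huwe1_LKO and 25.6 in WT. Retnlg was also called, with 11.3 in Huwe1_LKO and 3.78 in WT. S100a8 had 28.0 in Huwe1_LKO and 9.89 in WT, and Mmp8 5.52 in Huwe1_LKO and 2.16 in WT (adjusted p = 0.0504 and 0.118 by DESeq2). At an unadjusted p under 0.05, 4 of the 5 were higher, where 9.65% of all genes were. The defining marker Ly6g, at a mean value of 6.27, had 5.02 in Huwe1_LKO and 7.52 in WT in the deposited table (log2 fold change -0.58, adjusted p = 0.628). The 6 markers of B and plasma cells summed to 309 in Huwe1_LKO and 158 in WT. The marker that was called was Jchain, the largest part of both sums, at 208 in Huwe1_LKO and 69.7 in WT (adjusted p = 0.000471 by DESeq2). The plasma cell marker Mzb1 had 9.99 in Huwe1_LKO and 6.32 in WT (adjusted p = 0.516 by DESeq2). Of the 6, 5 lay above 0 and Ms4a1 lay below it (log2 fold change -0.34). None of the 5 T cell markers (120.3 in Huwe1_LKO, 86.3 in WT), 5 monocyte and macrophage markers (1142 in Huwe1_LKO, 933 in WT), 5 Kupffer cell markers (1899 in Huwe1_LKO, 1623 in WT) or 5 bile duct markers (1620.1 in Huwe1_LKO, 900.4 in WT) passed in the deposited result, where 1 bile duct marker had an unadjusted p under 0.05. That marker, Spp1, made up most of the bile duct sum, with 1410.3 in Huwe1_LKO and 722 in WT, while Krt19 had 19.3 in Huwe1_LKO and 18.0 in WT and Krt7 9.40 in Huwe1_LKO and 13.9 in WT in the deposited table. Sinusoidal endothelium (1514 in Huwe1_LKO, 1437 in WT), stellate cells (4813 in Huwe1_LKO, 4250 in WT) and erythroid cells (12472 in Huwe1_LKO, 13499 in WT) had 0 calls of 5 markers each, with 1 erythroid marker at an unadjusted p under 0.05. No marker was listed at 0 in either group, but genes with about 1 read in all also had values in both groups. A value above 0 therefore does not show that a marker was detected in that group. The part of these cells in the levels of the cell cycle genes was not tested.

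Promoters of G1/S and G2/M genes differ in known elements, and the members were searched for these in RefSeq promoter windows of GRCm38.p6, from 250 bases before to 50 after the start. Windows were found for 32 of the 40 genes, and Ccnd1, Ccnd2, Ccne2, Rb1, Mcm4, Ccna2, Foxm1 and Aurkb had none in the table used. The E2F element was searched as TTTCCCGC, TTTCGCGC, TTTGCCGC or TTTGGCGC, the CHR element of the MuvB complex as TTTGAA and the CCAAT box as CCAAT, all on both strands and with overlaps between elements allowed. The E2F element occurred in 9 of 21 G1/S genes and 1 of 11 G2/M genes, against 4.10% of 13190 genes of the table with a window. The CHR element occurred in 8 of 11 G2/M genes and 3 of 21 G1/S genes, against 15.4% of those genes. CCAAT occurred in 10 of 11 G2/M genes and 14 of 21 G1/S genes, against 42.3%. A match describes letters and is no evidence that a factor binds.

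The 250 bases before the start are printed below for 5 genes, with matches in capitals. E2f7 and Ccne1 were called higher and had windows of different content, Mcm6 has 3 E2F matches without a called change, and Cdc20 and Cdk1 represent the G2/M genes.
E2f7, chr10:110745189-110745438, plus strand: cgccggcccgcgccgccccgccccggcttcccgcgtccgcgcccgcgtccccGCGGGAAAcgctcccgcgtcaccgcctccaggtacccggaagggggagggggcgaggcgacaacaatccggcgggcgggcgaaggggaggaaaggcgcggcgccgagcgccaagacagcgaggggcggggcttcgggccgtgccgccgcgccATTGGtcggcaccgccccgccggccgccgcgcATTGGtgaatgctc
Ccne1, chr7:38107491-38107740, minus strand: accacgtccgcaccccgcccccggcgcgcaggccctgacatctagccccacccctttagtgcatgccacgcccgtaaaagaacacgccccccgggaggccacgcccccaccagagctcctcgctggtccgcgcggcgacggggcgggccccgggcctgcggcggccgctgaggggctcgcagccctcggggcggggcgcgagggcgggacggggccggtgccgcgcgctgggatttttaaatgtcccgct
Mcm6, chr1:128359706-128359955, minus strand: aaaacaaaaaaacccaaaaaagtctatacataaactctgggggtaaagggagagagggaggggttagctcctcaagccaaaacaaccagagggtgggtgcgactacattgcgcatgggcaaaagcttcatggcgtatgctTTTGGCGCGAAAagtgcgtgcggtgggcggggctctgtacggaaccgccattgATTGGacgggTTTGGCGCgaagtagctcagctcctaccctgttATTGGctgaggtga
Cdc20, chr4:118437344-118437593, minus strand: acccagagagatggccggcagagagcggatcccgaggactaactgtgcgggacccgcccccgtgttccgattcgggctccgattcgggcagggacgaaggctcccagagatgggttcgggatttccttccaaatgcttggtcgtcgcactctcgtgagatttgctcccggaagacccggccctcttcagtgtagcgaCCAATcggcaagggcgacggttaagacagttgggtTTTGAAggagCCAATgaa
Cdk1, chr10:69352913-69353162, minus strand: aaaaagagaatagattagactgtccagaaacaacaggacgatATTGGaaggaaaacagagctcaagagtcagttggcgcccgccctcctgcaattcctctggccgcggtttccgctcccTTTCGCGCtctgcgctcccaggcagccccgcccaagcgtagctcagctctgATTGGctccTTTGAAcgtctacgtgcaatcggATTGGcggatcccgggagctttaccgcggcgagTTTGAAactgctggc

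E2f7 held 1 E2F match, at position -198 from the start, and 2 CCAAT matches, while the window of Ccne1 held none of the 3 elements in the letters searched. In Mcm6 the pair at -110 and -106 overlap on opposite strands, and the third match lies at -47. Cdc20 had its CHR at -18 between CCAAT matches at -53 and -8, and Cdk1 had CHR matches at -71 and -15 and an E2F match at -131. The windows of Cdkn2c, the other called gene with windows, held no E2F or CHR match. Among the 5 Mcm genes with a window, 4 held an E2F match, and none of them was called.

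Exons of 14 members overlap exons of another gene in GENCODE M21 on GRCm38, and neither labels nor headers say whether reads were counted by strand. For Ccnd1 the overlap is 1100 bases with a gene on the opposite strand, listed as Oraov1, which had 255 in Huwe1_LKO and 229 in WT in the authors' deposited table (adjusted p = 0.791). E2f7 overlaps the antisense transcript 1700020G17Rik over 86 bases and Cdc20 overlaps Elovl1 over 53 bases, Elovl1 having 856.6 in Huwe1_LKO and 910.4 in WT in the deposited table. Cdk4 overlaps Tspan31, at 5287 in Huwe1_LKO and 5897 in WT, over 641 bases. Ccne2 overlaps Ints8 over 609 bases, and Ints8 was itself called higher, with 284 in Huwe1_LKO and 217 in WT (adjusted p = 0.0333 by DESeq2). Ccna2 overlaps Exosc9, at 108 in Huwe1_LKO and 152 in WT, over 510 bases. Ccnd3 overlaps Bysl, at 227 in Huwe1_LKO and 313 in WT, over 361 bases, and E2f8 overlaps the transcript Gm2788 over 610 bases. Part of the levels of the overlapping members, among them Ccnd1, Ccnd3, Cdk4, Ccne2, Ccna2 and E2f8, is therefore uncertain. So are the shares within the D-type cyclins, the E-type cyclins, the Cdk4 and Cdk6 pair and the E2f7 and E2f8 pair. Pcna, Tyms, Ccnd3, Ccnb1 and Ccnb2 have named pseudogenes in RefSeq, to which some of their reads could have gone. Ccne1 and Cdkn2c had neither an overlap nor a named pseudogene.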

How the data were processed

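Per the labels' protocols, RNA of whole livers of 4 Huwe1_LKO and 4 WT mice was sequenced. The submitters' processing notes name the build mm10 and DESeq2, while the aligner, the counting step and all versions stay unnamed. Per the file headers, the table deposited by the authors gives each gene a depth-normalized signal in either group, the log2 ratio of the pair, its p-values and a transcript length. Recomputed Benjamini-Hochberg values matched the deposited adjusted p-values over 16640 genes to within 1.74e-06. The 707 genes with about 1 read in all take only 8 different mean values. Their log2 fold changes are 0.11 to 0.12 in size, so deposited fold changes of low genes are understated. The log2 ratio of the group values matched the deposited log2 fold change to within 4.71e-08. The group values of low genes, and shares or sums made from them, thus differ less between the groups than the reads did. The implied standard error was also smaller at the lowest values, with 0.37 for Hemgn at a mean value of 0.52 and 0.57 for Bub1 at 4.18. How far this touches more abundant genes was not tested. Fold changes, intervals and shares of the members could be affected too. The implied standard error did not exceed 0.57. This error is the size of the log2 fold change divided by the normal score of the unadjusted p, which assumes a Wald test.

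A count model on each liver could not be fitted with 1 value per group, and a gene was called where the deposited adjusted p was under 0.05. The p-values rest only on these livers, through the variation that the model estimated. The members and gene lists were chosen with earlier results of these data known. All 40 members are named; of other pathway genes, each called gene and the 2 largest fold changes per list at a mean value of 10 or more are named. The G1/S and G2/M groups follow the textbook time of action, with Ccna2 under G2/M. Coordinates and promoters are from RefSeq for GRCm38, counted from 1. The tables were made with pandas 2.3.3 and numpy 2.4.6 and the normal scores with scipy 1.17.1, under Python 3.11.15, and plots with matplotlib 3.10.9.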

Additional observations from a re-analysis of the deposited data

How the results depend on the processing

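The count of members called higher was 3 at an adjusted p under 0.01, without Cdkn2c, and 4 at an adjusted p under 0.1, with Benjamini-Hochberg adjustment over genes with a mean value of 10 or more, and after centring the fold changes on those genes or on the most abundant eighth of genes. In each of these settings 0 were called lower. At an unadjusted p under 0.05 the counts were 8 higher and 1 lower. Centring on the most abundant eighth moved all log2 fold changes up by 0.08, and the share of higher among all calls was 65.1%, against 44.2% as deposited. The median log2 fold change of the G2/M genes ranged from 0.65 to 0.74 over the centrings and was 0.70 for the 12 with a mean value of 10 or more and 0.69 without Ccna2; only 1 G2/M gene, Mki67, had a mean value of 50 or more. That of the G1/S genes stayed between -0.01 and 0.09 in every setting run, so its sign is not settled. No paired analysis was possible because the deposited table holds 1 value per group. For the same reason the count models of edgeR and DESeq2 on each liver, and leaving out each liver in turn, were not run, so whether 1 liver decides a call was not tested. The G2/M genes rest on few reads, about 33.5 normalized reads in all 8 livers for Bub1 and 561 for Mki67, and their standard errors also exceeded the median of genes at like levels.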

Other observations

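The authors' table also annotates genes with process terms, and these widen the view beyond the members. Of 49 other genes annotated to the G1/S transition, 2 were higher and 1 lower at an adjusted p under 0.05 in the deposited table. Among all genes 4.41% were higher and 5.56% lower, so these counts do not exceed the background. Of the 49, 75.5% had a log2 fold change above 0, against 53.1% of all genes, and the median was 0.14, against 0.02. The 2 that rose were Tcf19, with 85.9 in Huwe1_LKO and 49.3 in WT, and the Polo-like kinase Plk2, with 172 in Huwe1_LKO and 113 in WT. Rhou, a small GTPase, fell to 846 in Huwe1_LKO, against 1311 in WT in the deposited table. Of 33 other genes annotated to the G2/M transition, 0 were higher and 2 lower in DESeq2's deposited result, close to that background for so few genes. At an unadjusted p under 0.05, 4 were higher and 3 lower, where all genes gave 9.65% and 10.8%. The median log2 fold change of the 33 was -0.03, unlike that of the G2/M members. The 2 that fell were Ywhag and Tpd52l1, with deposited log2 fold changes of -0.51 and -0.85.

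Among 275 other genes annotated to cell division, 10 were higher and 8 lower in the authors' deposited table, and the median log2 fold change was 0.04. Among all genes 4.41% were higher and 5.56% lower, so these counts do not exceed the background, and the genes named next are single values. Plk5, a Polo-like kinase family member, had 83.1 in Huwe1_LKO and 35.4 in WT (adjusted p = 0.000657 by DESeq2), and the scaffold protein gene Nedd9 had 231 in Huwe1_LKO and 77.0 in WT in the deposited table (adjusted p = 0.0339). The kinetochore gene Zwint fell to 752 in Huwe1_LKO, against 1063 in WT in the deposited table (log2 fold change -0.50, adjusted p = 0.00143). These genes were chosen for naming after their values were seen.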
